A study of Drosophila melanogaster with 23 samples.

Results

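The Antennapedia complex is a cluster of homeobox genes on chromosome arm 3R of Drosophila melanogaster. It was followed here in Hi-C maps, which count ligations between pieces of crosslinked DNA that were near each other in the nucleus. The locus was taken as the 45 bins of 10 kb from 6600001 to 7050000 of 3R (dm6), of 15850 bins in all, and all 45 held contacts in every map. It was chosen by position, for the 8 genes labial (lab), proboscipedia (pb), zerknüllt (zen), bicoid (bcd), Deformed (Dfd), Sex combs reduced (Scr), fushi tarazu (ftz) and Antennapedia (Antp). The 23 libraries fell into 7 groups, each pooled by the authors into 1 map. Stage 5 embryos, from eggs collected over 1 h and aged for 2 h, came from control mothers (7 libraries) or from mothers with an shRNA against heterochromatin protein 1 in the germ line (HP1-KD, 5). Others came from HP1-KD mothers that also expressed shRNA-resistant Flag-HA-HP1 from pUASP (HP1-rescue, 3), or from mothers expressing H3.3K9M from pUASP, a histone H3.3 with lysine 9 replaced by methionine (H3K9M, 2). S2 cells, a line of cultured embryonic Drosophila cells, were treated with dsRNA against GST (S2 control) or with HP1 dsRNA 1 or HP1 dsRNA 2, against different parts of the HP1 transcript, with 2 libraries each. The knockdown in embryos was maternal, driven by Gal4 in the female germ line, and left some HP1. Whole embryos were used, so cells in which a given gene is on and cells in which it is off were measured together.

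Hox genes give the body axis its regional identity. In flies they are split between the Antennapedia complex, whose genes act in head and thorax, and the bithorax complex (Ubx, abd-A and Abd-B) further along 3R, whose genes act in thorax and abdomen. In lab, pb, Dfd, Scr and Antp this role is kept, whereas zen (dorsal tissue), bcd (the maternal anterior gradient) and ftz (a pair-rule gene) stand in the cluster but no longer act as Hox genes. Large intergenic and intronic enhancers lie between these genes, and chromatin boundaries set which promoter they can reach. Both complexes are classical targets of Polycomb repression, which is distinct from the HP1 pathway that marks pericentromeric heterochromatin through histone H3 lysine 9 methylation.

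The genes lie in the order of their names above. On the minus strand, lab started at 6678590, pb at 6742063, zen at 6754194, bcd at 6759466, Scr at 6849981 and Antp at 6999228. On the plus strand, Dfd started at 6791836 and ftz at 6864324. The starts of zen and bcd share a bin and cannot be separated. Antp spans 102976 bp and has a further cluster of 6 annotated transcripts that start at 6932840, called here the proximal start. By annotation the locus was cut into a lab end (10 bins), pb to bcd (9 bins), Dfd to ftz (10 bins), Antp (11 bins) and a distal end upstream of Antp (5 bins).

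The promoters of Scr, ftz, Antp and of abd-A in the bithorax complex are shown because their bins carry the strongest contacts described below. Each is 300 bases of the RefSeq dm6 reference, from 250 before to 50 after the annotated start, 5′ to 3′ on the gene's strand. They are chr3R:6849932-6850231 (minus) for Scr, chr3R:6864074-6864373 (plus) for ftz, chr3R:6999179-6999478 (minus) for Antp and chr3R:16830000-16830299 (minus) for abd-A. Capitals mark GAGAG, bound by GAGA factor, and CAGGTAG, bound by the early activator Zelda, on either strand.
Scr: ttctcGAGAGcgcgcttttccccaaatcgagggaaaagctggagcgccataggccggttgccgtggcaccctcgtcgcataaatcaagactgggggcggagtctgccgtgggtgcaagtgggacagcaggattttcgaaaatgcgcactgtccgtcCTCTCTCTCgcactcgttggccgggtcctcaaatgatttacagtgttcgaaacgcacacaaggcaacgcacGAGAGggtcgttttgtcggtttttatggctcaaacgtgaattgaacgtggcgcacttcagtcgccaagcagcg
ftz: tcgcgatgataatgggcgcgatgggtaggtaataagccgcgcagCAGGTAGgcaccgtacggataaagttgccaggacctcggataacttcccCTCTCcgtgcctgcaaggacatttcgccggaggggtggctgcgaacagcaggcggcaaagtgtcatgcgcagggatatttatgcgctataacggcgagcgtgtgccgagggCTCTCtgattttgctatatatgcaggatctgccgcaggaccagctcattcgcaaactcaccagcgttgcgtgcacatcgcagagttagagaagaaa
Antp: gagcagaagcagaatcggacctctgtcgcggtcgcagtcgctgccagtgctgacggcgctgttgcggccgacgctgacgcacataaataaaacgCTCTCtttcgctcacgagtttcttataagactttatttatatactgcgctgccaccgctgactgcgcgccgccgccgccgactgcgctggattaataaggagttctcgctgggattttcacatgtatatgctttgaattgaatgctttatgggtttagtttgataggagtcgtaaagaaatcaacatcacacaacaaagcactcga
abd-A: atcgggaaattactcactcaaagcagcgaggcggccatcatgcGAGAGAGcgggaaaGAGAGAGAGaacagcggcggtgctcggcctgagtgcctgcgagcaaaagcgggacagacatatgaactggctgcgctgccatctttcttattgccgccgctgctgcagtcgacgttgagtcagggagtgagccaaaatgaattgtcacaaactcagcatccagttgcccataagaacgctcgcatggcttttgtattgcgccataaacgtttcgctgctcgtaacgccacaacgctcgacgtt

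Counting overlapping matches, GAGAG occurred 5 times in the Scr promoter, 2 times in ftz, 1 time in Antp and 5 times in abd-A, and 6 times in the promoter of Dfd. Each of the 8 members held at least 1 match, against 31% of 3339 protein-coding promoters of 3R. CAGGTAG was found in the ftz promoter alone among the 8, with 1 match, and in 1.68% of promoters of 3R. These matches describe the sequence and were not tied to binding.

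The shallowest map, S2 control, held 34875004 whole contacts and the deepest, control embryos, 299715971. Values below are observed over expected contact (O/E): the mean balanced contact of a set of bin pairs at least 20 kb apart, over the mean at the same distances across the 2786 used bins of the 3R arm in the same map. A value of 1 is the arm average. Each group is 1 map, so there is no replicate error, no test was made, and the 95% intervals cover counting error only.

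Within the locus as a whole, contact in embryos was at the arm average, and in S2 cells it was well above it. The O/E was 0.988 in control (95% interval 0.984 to 0.991), 1.01 in HP1-KD, 1.00 with HP1-rescue and 0.993 with H3K9M. The S2 maps were at 1.27 (control), 1.27 (dsRNA 1) and 1.28 (dsRNA 2). Among 61 windows of 450 kb along 3R the locus ranked 38 from the highest in control embryos and 5 in each of the 3 S2 maps. S2 control exceeded control embryos by 0.36 on the log2 scale (0.35 to 0.38), which passed the 1.2-fold mark that 8.20% of the windows passed. The HP1-KD and HP1-rescue maps differed from control by 0.03 and 0.02, H3K9M by 0.01, and the dsRNA maps from S2 control by 0.00 and 0.02. In mean balanced contact, without the expected value and added after seeing the data, S2 control was above control embryos by 0.10 (0.097), below the 1.2-fold mark, and HP1-KD and HP1-rescue were both at -0.21 against control.

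This average joined an excess at short range and a deficit at long range in embryos. Pairs 20 to 40 kb apart were at 1.10 in control embryos, and pairs 150 to 440 kb apart were at 0.696. The long-range value was 0.82 in HP1-KD, 0.73 with HP1-rescue and 0.716 with H3K9M, all below the arm average. In the S2 maps it lay between 1.24 and 1.30, and no S2 map overlapped the embryo maps.

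The long-range deficit was deepest between the lab end and the genes beyond bcd. The lab end holds lab, which acts in the head and midgut, cuticle genes and housekeeping genes such as Taf1. Its O/E with Dfd to ftz was 0.425 in control (0.413 to 0.437, 4706 contacts), 0.584 in HP1-KD, 0.469 with HP1-rescue and 0.443 with H3K9M. In S2 cells the same block was at 1.05 in control, 1.01 in dsRNA 1 and 1.00 in dsRNA 2. With Antp, the lab end was at 0.521 in control, 0.637 in HP1-KD, 0.543 with HP1-rescue and 0.527 with H3K9M, and between 1.15 and 1.21 in S2 cells. HP1-KD was above control by 0.46 on the log2 scale for Dfd to ftz (0.40 to 0.52) and by 0.29 for Antp (0.22 to 0.37), whereas for H3K9M both intervals included 0. HP1-rescue was above control by 0.14 for Dfd to ftz (0.05 to 0.23), and for Antp it was at 0.06 (-0.06 to 0.18).

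At the other end, Antp and the region upstream of it met each other and Dfd to ftz above the arm average in embryos, and more so in S2 cells. Dfd to ftz with Antp was at 1.16 in control embryos, 1.15 in HP1-KD, 1.17 with HP1-rescue and 1.11 with H3K9M. In S2 control, dsRNA 1 and dsRNA 2 it was at 1.55, 1.56 and 1.53. Antp with the distal end was at 1.30 in control embryos, 1.28 in HP1-KD, 1.35 with HP1-rescue and 1.33 with H3K9M, and at 1.88, 1.94 and 1.98 in S2 control, dsRNA 1 and dsRNA 2. Dfd to ftz with the distal end was at 1.08 in control, 1.26 in HP1-KD, 1.16 with HP1-rescue and 1.14 with H3K9M, and between 2.04 and 2.23 in S2 cells.

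**Figure D1:**
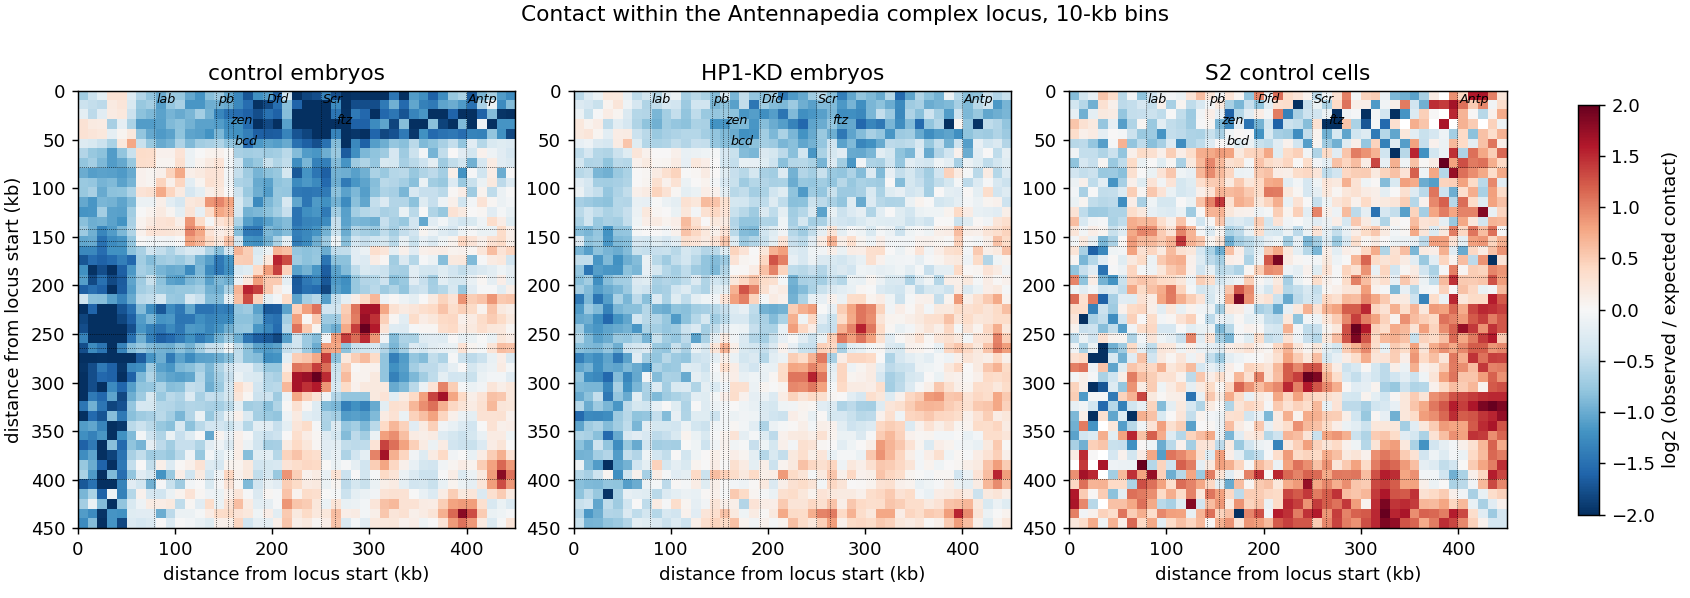
Log2 of observed over expected contact for each pair of 10-kb bins of the locus in control embryos, HP1-KD embryos and S2 control cells, with both axes in kb from the start of the locus and dotted lines at the 8 gene starts. The lab end is blue against Dfd to ftz in embryos (O/E 0.425 in control) and near white in S2 cells (1.05), and S2 cells are red between Dfd to ftz and the distal end (2.09).

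Gene starts met mostly above the average in S2 cells and mostly below it in embryos, and the locus as a whole went the same way. In S2 control, all pairs of the locus had a mean O/E of 1.404 at 50 to 140 kb and 1.26 at 150 to 440 kb. In control embryos these means were 0.893 and 0.696. Whether starts differed from other bins of the locus at the same distances was not tested. Single bin pairs are skewed, so that most lie below the mean: at the same 17 distances, between 38.5% (control) and 42.2% (HP1-KD) of all 3R pairs were above 1 in embryos. Of 20 pairs of member starts at least 20 kb apart, with zen and bcd as 1 start and the proximal start of Antp left out, 4 were above 1 in control (38.5% of 3R pairs), 7 in HP1-KD (42.2%), 6 with HP1-rescue (40.7%) and 4 with H3K9M (40.0%). The medians were 0.732, 0.837, 0.778 and 0.681, against 0.836, 0.936, 0.884 and 0.871 for the 3R pairs. In S2 control, dsRNA 1 and dsRNA 2 there were 14, 16 and 13 above 1 (37.5%, 37.1% and 36.3% of 3R pairs), with medians of 1.25, 1.24 and 1.16 against 0.767, 0.767 and 0.743. Scr and ftz, which lies within the regulatory region of Scr, were at 0.50 in control embryos, 0.726 in HP1-KD, 0.542 with HP1-rescue and 0.622 with H3K9M, and between 0.997 and 1.04 in S2 cells. Dfd and Scr were at 0.407, 0.649, 0.385 and 0.334 in the same embryo maps and between 1.02 and 1.15 in S2 cells. Dfd and Antp, 200 kb apart, were at 0.78 in control embryos on 35 contacts, 1.08 in HP1-KD on 40, 1.01 with HP1-rescue on 8 and 0.941 with H3K9M on 10. They were at 2.75 in S2 control on 15 contacts, 1.90 in dsRNA 1 on 12 (0.982 to 3.32) and 2.00 in dsRNA 2 on 14. The distal and proximal starts of Antp, 60 kb apart, were at 0.919 in control embryos, 1.28 in HP1-KD, 1.37 with HP1-rescue and 1.15 with H3K9M, against 2.78, 2.21 and 2.66 in S2 control, dsRNA 1 and dsRNA 2.

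A few pairs stood far above the average, and were picked as the highest in the control map after the values were seen. The bin of the Scr start and the bin from 6890001 to 6900000, which holds the 3′ end of Antp and the noncoding genes lncRNA:CR45559 and lncRNA:CR44932, lie 50 kb apart with ftz between them. Their O/E was 4.71 in control embryos (4764 contacts), 2.89 in HP1-KD (1554), 4.54 with HP1-rescue (770) and 3.78 with H3K9M (809). It was 5.01, 5.38 and 4.62 in S2 control, dsRNA 1 and dsRNA 2, so that HP1-KD was the lowest of the 7 maps. The Antp start and the bin from 7030001 to 7040000 upstream of it, with lncRNA:CR44933, were at 3.505 in control, 2.86 in HP1-KD, 3.04 with HP1-rescue and 3.19 with H3K9M, and between 2.96 and 3.27 in S2 cells. Both pairs thus stood high in both cell sources. Others of the highest pairs were lower in S2 cells, and in HP1-KD embryos too. The bins from 6910001 to 6920000 and from 6970001 to 6980000, both inside Antp, were at 3.17 in control embryos. They were at 1.87 in HP1-KD (410 contacts), 2.71 with HP1-rescue, 3.02 with H3K9M and 1.88 in S2 control (66 contacts). The former with the bin from 6960001 to 6970000 was at 2.56 in control embryos, 1.81 in HP1-KD and 1.2 in S2 control (90 contacts).

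Boundaries were read from an insulation score, the log2 mean contact in a 50-kb diamond across each bin relative to the arm. The control embryo map had 5 minima of prominence 0.2 or more in the locus, of 248 on the arm. They lay at 6660001 to 6670000 (the start of agt and the 3′ end of lab), 6760001 to 6770000 (Ama, next to bcd), 6810001 to 6820000 (lncRNA:CR42651, between Dfd and Scr), 6900001 to 6910000 (the 3′ part of Antp) and 6970001 to 6980000 (inside Antp). The bin between Dfd and Scr held 42 matches to GAGAG, against a median of 14 in bins of the 3R arm, and 99.4% of bins held as many or fewer. The other boundary bins held 18 to 23, against a median of 17 in the locus. Some bins of the locus without a boundary held more than these, up to 29. The bin with 42 matches held 10 of GATC, the cut site of the libraries, against a median of 25 on the arm. Beyond the locus, on its distal side, the next boundary lay at 7080001 to 7090000, whose depth ranked 10 of 248.

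Depth, the mean score 50 kb to either side less the score at the boundary, was largest in control, HP1-rescue and H3K9M embryos at the boundaries on either side of the Scr and ftz region. At the boundary between Dfd and Scr it was 1.31 in control embryos (SE 0.019 from counting), 0.669 in HP1-KD, 1.14 with HP1-rescue and 1.10 with H3K9M. At the 3′ part of Antp it was 1.39 in control, 0.672 in HP1-KD, 1.16 with HP1-rescue and 1.14 with H3K9M. In S2 control, dsRNA 1 and dsRNA 2 the former was 0.669, 0.637 and 0.497, and the latter 0.748, 0.875 and 0.903. At the lab boundary the depths were 1.06 in control, 0.661 in HP1-KD, 0.948 with HP1-rescue and 0.899 with H3K9M, and between 0.847 and 1.07 in S2 cells. Read at these control bins, the 3 boundaries were level in HP1-KD, and that of lab was the deepest of them in each S2 map. This order depended on the bin, as the minimum at the 3′ part of Antp lay 10 kb further on in those maps. At that minimum the depth was 0.869 in HP1-KD and 1.14, 1.145 and 1.192 in S2 control, dsRNA 1 and dsRNA 2. It was then deeper than the lab boundary in each of them. Next to bcd, at the control bin, the depth was 0.379 in control embryos and between 0.179 and 0.321 in the other 6 maps. The score 50 kb to its distal side is that of the boundary between Dfd and Scr, which lowers this depth. The prominence of the minimum was 1.31 in control embryos and 0.605 in S2 control. At their own minima within 10 kb, HP1-KD was at 0.469 and S2 dsRNA 2 at 0.466, both above control. The boundary inside Antp was at 0.477 in control, 0.087 in HP1-KD, 0.216 with HP1-rescue and 0.244 with H3K9M, and below 0 in all S2 maps (-0.43, -0.44 and -0.48). In the S2 maps contact across the bin was higher than 50 kb to either side, and the proximal side lay next to the trough at the 3′ part of Antp. No S2 map had a minimum of prominence 0.2 or more within 10 kb of this bin. In dsRNA 1 a minimum of prominence 0.223 lay at 6990001 to 7000000.

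**Figure D2:**
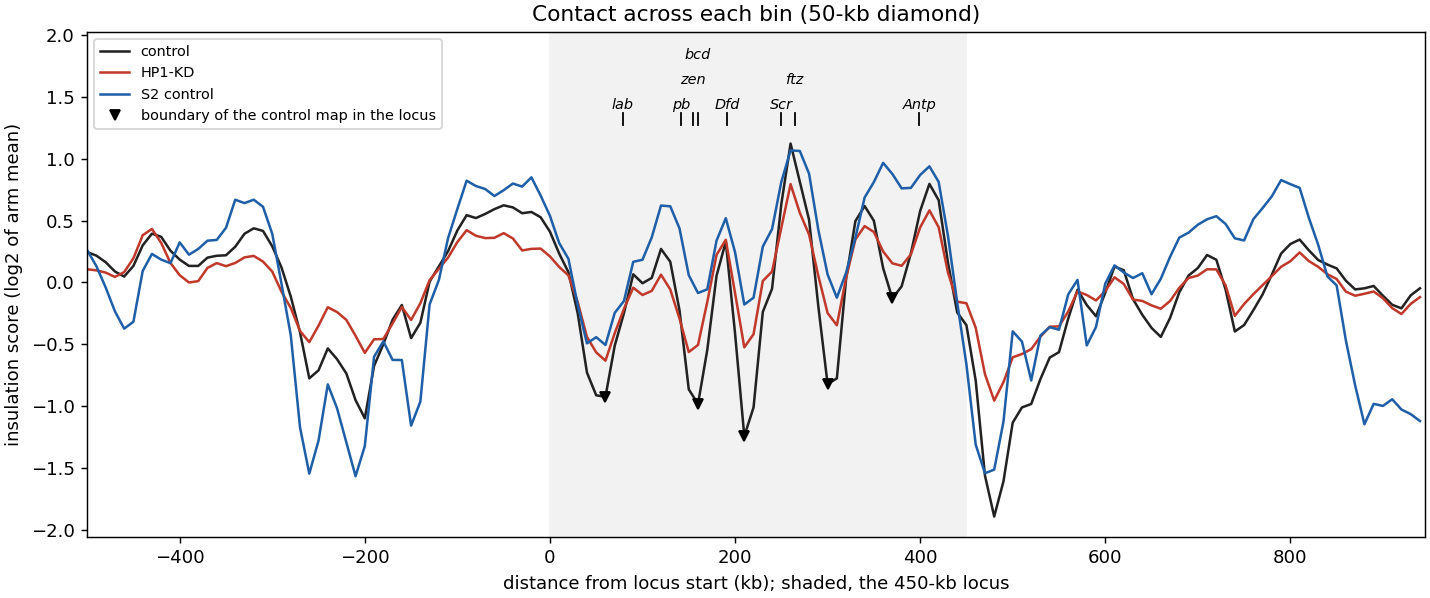
Insulation score, in log2 of the arm mean, against distance from the start of the locus in kb, in control embryos, HP1-KD embryos and S2 control cells, with the locus shaded, gene starts as ticks and the 5 control boundaries as triangles. The troughs on either side of Scr and ftz are shallower in HP1-KD than in control. Inside Antp, S2 control has only a shallow dip, distal to the control boundary. Its score there goes from 0.966 at 360 kb to 0.76 at 380 kb and 0.938 at 410 kb.

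Averaged over the 5 boundaries, depth was 0.923 in control embryos, 0.46 in HP1-KD, 0.749 with HP1-rescue and 0.731 with H3K9M. HP1-KD was lower by 0.2 or more at 4 of 5 boundaries, where 69.0% of the 248 boundaries of 3R were. HP1-rescue was so at 2 of 5 (25.4% of 3R) and H3K9M at 3 of 5 (25.8%). The mean difference from control was -0.46 in HP1-KD (-0.49 to -0.44), -0.17 with HP1-rescue and -0.19 with H3K9M in the locus, and -0.33, -0.12 and -0.12 over 3R. Lower depth in HP1-KD was thus one that most boundaries of the arm shared. The boundaries were chosen as minima of the control map, which favours that map in depth, here and in the values over 3R. Measured at each map's own lowest bin within 10 kb, an alternative chosen after seeing the data, the HP1-KD mean was 0.55 and its difference -0.37.

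In S2 cells, dsRNA 1 and dsRNA 2 were lower by 0.2 or more at 0 of 5 boundaries, as were 5.24% and 2.42% of those of 3R. Their means of 0.471 and 0.45 lay above the 0.402 of S2 control. The mean differences were 0.069 and 0.048 in the locus, and -0.025 and 0.041 over 3R. Single boundaries differed: dsRNA 2 was lower between Dfd and Scr, by -0.17 (-0.28 to -0.07). Between cell sources the locus did differ from the arm: S2 control was lower than control embryos by 0.2 or more at 5 of 5 boundaries (40.3% of 3R). The mean difference was -0.52 (-0.56 to -0.48) in the locus and -0.02 over 3R. Of the 5, the boundary next to bcd (-0.20) and that of lab (-0.21) were just past the mark.

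**Figure D3:**
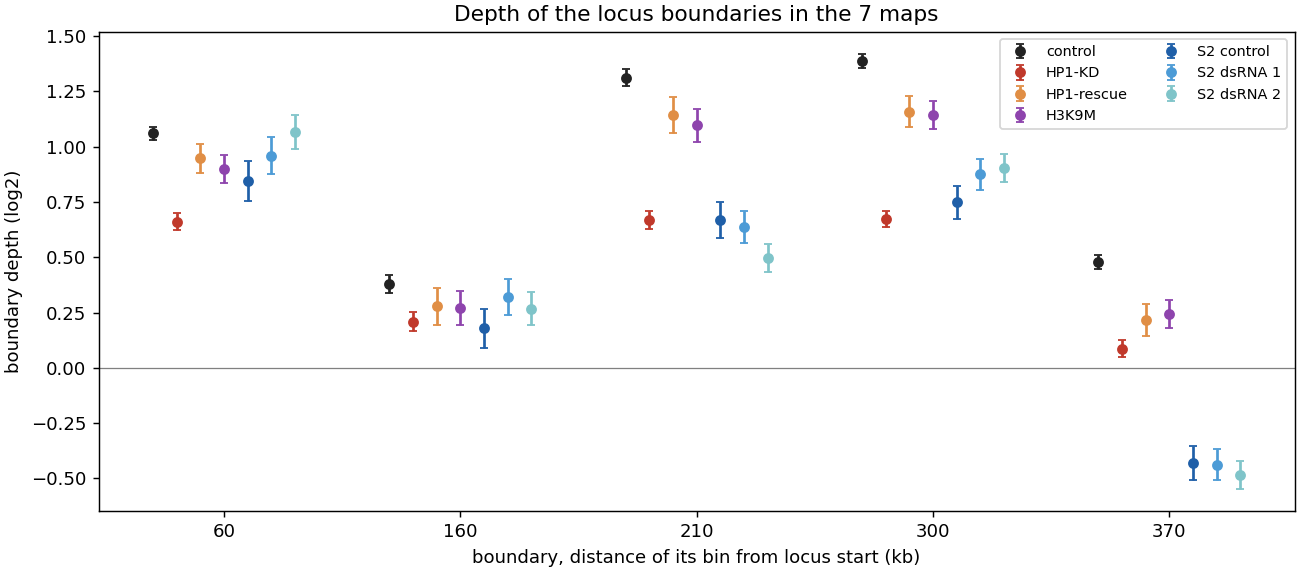
Depth (log2) of the 5 boundaries of the locus in the 7 maps, by distance of the boundary bin from the start of the locus in kb, with bars that show 95% counting intervals. Read at the bins of the control boundaries, control embryos are highest at 4 boundaries (at the lab boundary S2 dsRNA 2 reaches 1.07 against 1.06). The S2 maps lie below 0 at the boundary inside Antp.

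The locus kept apart from its distal 500-kb flank in every map. Its O/E with that flank was 0.639 in control embryos (0.634 to 0.644), 0.779 in HP1-KD, 0.698 with HP1-rescue and 0.674 with H3K9M, and between 0.802 and 0.831 in S2 cells. With the proximal flank it was 1.06 in control, 0.956 in HP1-KD, 0.982 with HP1-rescue and 1.00 with H3K9M, but 1.60, 1.60 and 1.67 in the S2 maps. The flanks met each other across the locus more than their distance predicts, at 1.45 in control, 1.10 in HP1-KD, 1.41 with HP1-rescue and 1.26 with H3K9M. In S2 cells this value was 1.11, 1.19 and 1.25. In O/E, HP1-KD was thus nearer to 1 than control in contact with the distal flank and between the flanks, with HP1-rescue between them in both. In mean balanced contact the direction between the flanks was the opposite: HP1-KD was above control by 0.80 on the log2 scale, where its O/E was at -0.40. With the proximal flank it was likewise at 0.27 in mean contact and at -0.15 in O/E.

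Among the windows of 3R compared, that of the other Hox cluster had the highest contact with the locus in embryos. The bithorax complex (33 bins, 16650001 to 16980000) lies 9.99 Mb away from centre to centre, and its O/E with the locus was 2.56 in control (2.45 to 2.67, 2178 contacts), 3.43 in HP1-KD (3.30 to 3.57, 2431), 2.90 with HP1-rescue (2.66 to 3.16, 514) and 3.06 with H3K9M (2.84 to 3.30, 692). Among 75 windows of 330 kb at least 1 Mb away it ranked 1 in all 4 embryo maps, and the next window in control was at 1.65. Other arms were not scanned, and single sparse bins of 3R reached higher values, up to 19.4 in control. In S2 cells it was 0.909 (0.755 to 1.09, 121 contacts), 0.974 and 1.08, at ranks 18, 7 and 3.

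Between maps, HP1-KD was above control by 0.43 on the log2 scale (0.34 to 0.51), HP1-rescue by 0.18 (0.04 to 0.32) and H3K9M by 0.26 (0.13 to 0.38). Without balancing the HP1-rescue value was 0.02 (-0.12 to 0.16), an interval that included 0. Over all 75 windows the HP1-KD ratio ranged from -0.80 to 0.62 with a median of 0.08, and the bithorax window ranked 2. It ranked 13 with HP1-rescue and 4 with H3K9M. In mean balanced contact, without the expected value and added after seeing the data, HP1-KD was at 0.71. S2 control was below control embryos by 1.49 on the log2 scale, the lowest of the 75 windows. For the dsRNA maps the ratios were 0.10 (-0.26 to 0.46) and 0.25 (-0.09 to 0.60), and a difference of this size could not be told from 0 at this depth.

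**Figure D4:**
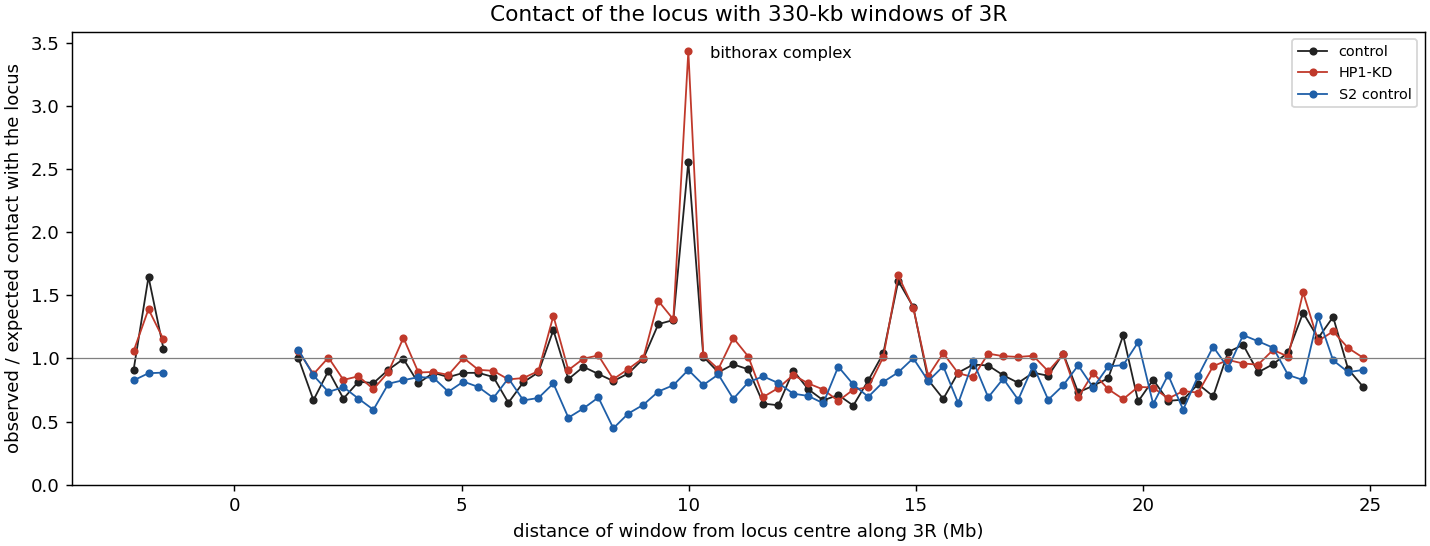
Observed over expected contact of the locus with each 330-kb window of 3R at least 1 Mb away, by distance from the centre of the locus in Mb, in control embryos, HP1-KD embryos and S2 control cells. The window of the bithorax complex stands at 2.56 in control and 3.43 in HP1-KD, and at 0.909 in S2 control.

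The lab end was the exception within the locus. Its O/E with the bithorax complex was 1.09 in control embryos (0.951 to 1.24, 227 contacts), 1.24 in HP1-KD, 1.16 with HP1-rescue and 1.18 with H3K9M. The other blocks were at 2.35 (pb to bcd), 2.87 (Dfd to ftz), 3.35 (Antp) and 3.22 (distal end) in control, with intervals that did not overlap that of the lab end. In HP1-KD they were at 2.40, 4.46, 4.50 and 4.61, and the largest ratio to control was that of Dfd to ftz, 0.64 on the log2 scale (0.48 to 0.80). Of the bithorax genes, abd-A was highest, at 3.21 in control (2.89 to 3.56) against 2.06 for Ubx and 2.23 for Abd-B, and at 4.43 against 2.74 and 3.26 in HP1-KD.

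By member start, O/E with the bithorax complex in control embryos was 0.962 for lab, 3.11 for pb, 2.81 for the shared bin of zen and bcd, 2.72 for Dfd, 2.48 for Scr, 4.13 for ftz and 3.24 for Antp. These rest on 19 to 103 contacts each, and lab was the lowest. The proximal start of Antp was at 4.49 (83 contacts), slightly above ftz. In HP1-KD the order ran from lab (1.19, 15 contacts) to ftz (7.69, 177 contacts), and ftz was also the highest with HP1-rescue (6.81, 37 contacts) and H3K9M (5.97, 42 contacts). The proximal start of Antp was lower than ftz in those maps, at 4.31, 3.80 and 2.59. In S2 control each start had 1 to 5 contacts, too few to order.

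A list of 21 developmental regulator genes of 3R placed this partner among others. In control embryos 8 of 21 had an O/E with the locus of 1.5 or more in the bin of their start, against 8.57% of 2544 bins. They were abd-A (3.44, 85 contacts), C15 (2.52, 27), lbe (2.33, 28), tin (2.19, 25), Ubx (2.05, 53), opa (1.72, 460), srp (1.71, 90) and Abd-B (1.66, 58). C15, lbe and tin are homeobox genes of 1 cluster within less than 1 Mb, and are not independent, while opa is a pair-rule gene and srp encodes a GATA factor. Outside the bithorax complex, 5 of 18 remained. HP1-KD had 11 of 21 (10.6% of bins), HP1-rescue 4 (14.1%) and H3K9M 13 (14.2%). S2 control had 4 (10.6%), dsRNA 1 had 2 (7.47%) and dsRNA 2 had 1 (7.82%). Many of these rest on few contacts, so the counts cannot be compared between maps of unlike depth. In H3K9M the intervals of Dr (3 contacts), lbe (5), slou (6), tll (6), C15 (8) and lbl (10) reached below 1. In HP1-KD so did those of tll (8), slou (9), C15 (16) and bap (21). The genes had 3 to 7 contacts in S2 control and 5 in dsRNA 1, and grn in dsRNA 2 had 57.

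Contact with the pericentromeric regions of the other chromosome arms was measured as mean balanced contact per bin pair, on the common total of the deposited maps. In control embryos the locus was at 0.0352 (0.0345 to 0.0360), against a median of 0.01 for bins of the 3R arm. Here and below the locus value is a mean, which a few high bins can raise, and the arm value is a median, so they are unlike measures. Its 500-kb flanks were at 0.0363 and 0.0383. The value of the locus was 0.0701 in HP1-KD, 0.0466 with HP1-rescue and 0.0598 with H3K9M. HP1-KD was 0.99 above control on the log2 scale (0.95 to 1.03), and 40 of 45 bins were 1.5-fold higher or more, where 51.9% of 3R bins were. The flanks were higher too, at 0.0785 and 0.0693 in HP1-KD, so this difference was not particular to the locus. The corresponding counts were 8 of 45 with HP1-rescue (20.7%) and 23 of 45 with H3K9M (51.4%). In S2 control the locus was at 0.0354, near the arm median of 0.0345. There dsRNA 1 had 14 of 45 bins higher (25.5%), and dsRNA 2 had 15 of 45 (22.4%).

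The ratio of the locus was 0.40 with HP1-rescue, 0.76 with H3K9M, 0.33 in dsRNA 1 and 0.74 in dsRNA 2. Some of these leaned on single sparse bins: in dsRNA 2 the bin from 6920001 to 6930000, inside Antp, was at 0.699 on 57 contacts, and without the highest bin of either map the ratio was 0.40. Without them H3K9M was at 0.62, HP1-rescue at 0.32 and HP1-KD at 0.98. As the ratio of the median bin, the locus was at 0.948 in HP1-KD, 0.293 with HP1-rescue and 0.595 with H3K9M. The arm was at 0.617, 0.004 and 0.609, so with H3K9M the locus was near the arm. In dsRNA 1 and dsRNA 2 the median bin of the locus was at 0.312 and 0.367, and that of the arm at 0.167 and 0.087.

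**Figure D5:**
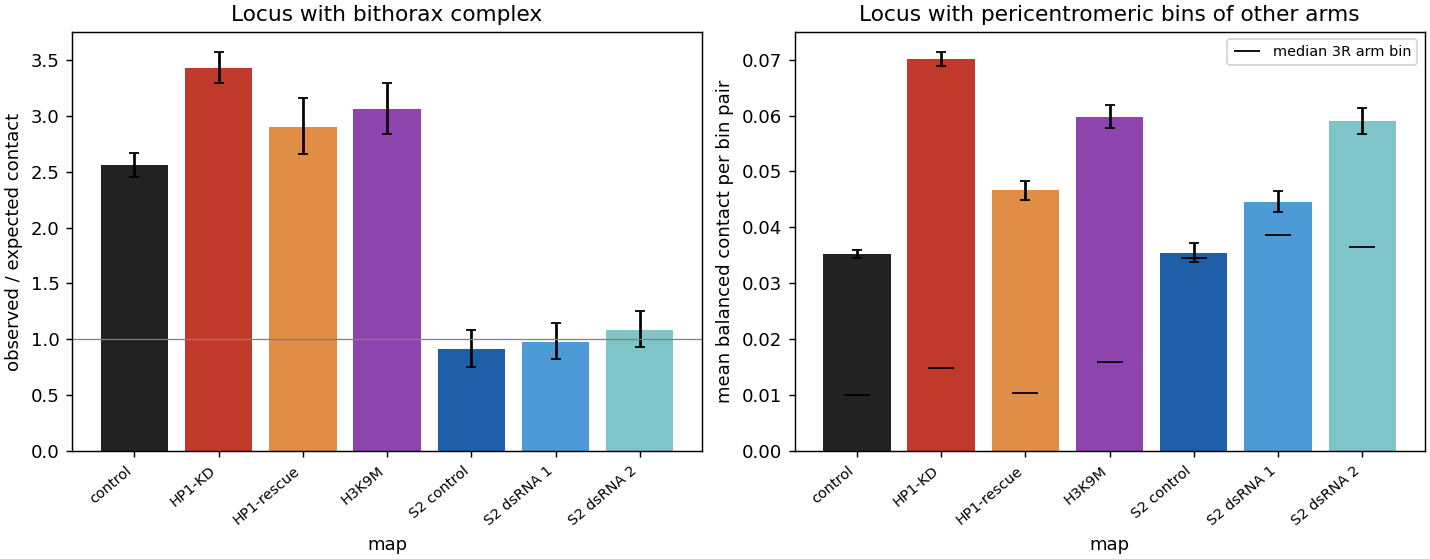
Left, observed over expected contact of the locus with the bithorax complex in the 7 maps. Right, mean balanced contact of the locus with pericentromeric bins of other arms, with the median bin of the 3R arm as a dash. Bars carry 95% counting intervals. HP1-KD is the highest map in both panels (3.43 and 0.0701), and the S2 maps lie near 1 in the left panel.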

How the data were processed

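Hi-C libraries were digested with DpnII. Per the labels, reads were processed with HiC-Pro 2.11.1 on dm6. The signal deposited by the authors is 1 balanced contact value per pair of 10-kb bins, with libraries pooled by group and each map summing to between 49999962 and 50000042. Since a balanced value is a whole number of contacts times 1 factor per bin, whole contacts were recovered (100.00% of values under 20 contacts were whole within 0.02). The S2 control map was assigned by its name, and a note in the name of the HP1-KD map may mean that some libraries were left out of its pool.

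Expected contact excluded the pericentromeric bins of 3R (1 to 4200000, where repeat-masked sequence was 30% or more of a running 500-kb mean). Intervals came from exact Poisson and conditional binomial limits on whole contacts. Gene positions came from Ensembl on the same build. The scripts ran in Python 3.11.15 with pandas 2.3.3, scipy 1.17.1, numpy 2.4.6 and, for plots, matplotlib 3.10.9, and the measures were tested on simulated data. Genes were named if they were members, lay at a boundary of the locus or belonged to a list of developmental regulators. The locus, the members and the lists were chosen with earlier results of these data known. Alternatives were no balancing, equal depth, other distances, limits, diamonds and expected values.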

Additional observations from a re-analysis of the deposited data

Results flagged for a closer look

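Boundary depth in the locus was lower with HP1 knockdown in embryos, and slightly higher in S2 cells. The mean over the 5 boundaries differed from the control of the same cell source by -0.46 in HP1-KD embryos (-0.464 before rounding), and in S2 cells by 0.069 (dsRNA 1) and 0.048 (dsRNA 2). The counting interval of the latter included 0. Over the boundaries of 3R the mean differences were -0.33 in HP1-KD, -0.025 in dsRNA 1 and 0.041 in dsRNA 2. The direction in S2 cells was not stable: with 100-kb diamonds dsRNA 2 was at -0.015 and dsRNA 1 at 0.011 (-0.024 to 0.046), and without balancing dsRNA 1 was at 0.041 (-0.009 to 0.091). This difference between cell sources was not tested, since each group is 1 map.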

How the results depend on the processing

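Of 96 recomputed values, 48 stayed within the counting interval of the value given and the others moved outside it. The sign was the opposite in 15, in 3 of which the interval of the value given had excluded 0: contact within the locus in HP1-KD and HP1-rescue in mean contact, and in HP1-rescue without balancing. Differences are on the log2 scale and the causes were not tested. Without balancing, contact within the locus was at 0.11 in both HP1-KD and H3K9M against control, at -0.12 in HP1-rescue, at -0.062 and -0.03 in dsRNA 1 and dsRNA 2, and at 0.58 in S2 control against control embryos. Boundary depth was then at -0.13 in HP1-rescue and -0.48 in S2 control against embryos, and contact with the bithorax complex at 0.51 in HP1-KD and 0.02 in HP1-rescue. With pairs 50 kb or more apart, contact within the locus was at 0.13 in HP1-KD, 0.049 in HP1-rescue, 0.03 (0.025) in H3K9M, -0.02 (-0.016) in dsRNA 1 and 0.69 in S2 control against embryos. At equal depth it was at 0.012 in HP1-KD and -0.01 (-0.007) in H3K9M, and contact with the bithorax complex in HP1-KD was at 0.58 (0.585). The HP1-rescue value was 0.01 (0.007) in a locus widened by 50 kb at either end. That of S2 control against embryos was 0.32 in a narrowed locus and 0.40 with the expected contact from 2L, 3L and X. In mean contact, chosen after seeing the data, it was at -0.21 in HP1-KD (-0.208) and HP1-rescue (-0.213), -0.065 in H3K9M, -0.086 and -0.07 in dsRNA 1 and dsRNA 2, and 0.097 in S2 control against embryos. The differences of the embryo maps from control in contact over the whole locus were thus no larger than what these settings move. Single blocks of the locus were not recomputed.

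With 30-kb diamonds the boundary depth was at -0.62 in HP1-KD, -0.22 in HP1-rescue, -0.24 in H3K9M and -0.76 in S2 control against embryos. With 100-kb diamonds it was at -0.25, -0.10, -0.11 and -0.38, and at 0.011 and -0.01 (-0.015) in dsRNA 1 and dsRNA 2. At each map's own lowest bin, chosen after seeing the data, it was at -0.37 in HP1-KD, -0.14 in H3K9M and -0.43 (-0.435) in S2 control against embryos. Contact of start bins alone with the bithorax starts was at 0.78 in HP1-KD (0.05 to 1.54, on 43 and 26 contacts). It was at 0.89 in HP1-rescue (11 contacts), 0.87 in H3K9M (14), -1.70 in dsRNA 1 (1 and 2 contacts) and -1.04 in S2 control against embryos (2 and 26). Of these intervals, only that of HP1-KD excluded 0. In mean contact, also chosen after seeing the data, contact with the bithorax complex was at 0.71 in HP1-KD, 0.46 in H3K9M and -1.05 in S2 control against embryos. No paired analysis was possible because each group is 1 pooled map. The number of contacts with the bithorax complex in S2 cells (121 to 181) limits what can be seen there.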

Other observations

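At 40 kb, the first eigenvector of the correlation of each 3R map, with its sign set so that gene-dense bins were on the A side, put most of the locus on the A side in embryos. It held 10 of 11 bins in control, 10 in HP1-KD, 9 with HP1-rescue and 10 with H3K9M, where 54.8%, 50.4%, 47.1% and 50.5% of 3R bins were on that side. In S2 control, dsRNA 1 and dsRNA 2 there were 3, 3 and 2 of 11, where 64.3%, 65.4% and 64.4% of 3R bins were. The median bin of the locus stood at the 80.5 percentile of 3R in control embryos and at the 23.8 percentile in S2 control. The correlation of the eigenvector with gene density, across bins, was 0.29 in control embryos and 0.55 in S2 control.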
